A study of Drosophila melanogaster with 2 samples.

Results

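Single-gene promoter summits were the summits of CG32767-eGFP peaks that lay within 500 bp of annotated transcription start sites (TSSs) of exactly 1 protein-coding gene. A summit is the base within a peak at which the authors' peak caller placed the maximum. There were 1154 of them among 3531 summits on the 6 chromosome arms examined (X, 2L, 2R, 3L, 3R and 4), and they belonged to 1001 genes. The other summits lay within 500 bp of TSSs of 2 or more coding genes (524), within 500 bp of TSSs of non-coding genes only (110), at 500 to 2000 bp from any TSS (795) or over 2000 bp away (948). The rule used position alone and no signal value, although every peak had passed the authors' threshold.

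The material was whole Drosophila melanogaster embryos aged 0 to 24 hours from transgenic flies that express a fusion of CG32767 with eGFP, a green fluorescent protein. The fusion protein was precipitated with an antibody against GFP after sonication, and there was 1 group of 2 biological replicates with 1 library each. All samples carried the transgene, and no control library was analysed here. The values therefore describe a tagged protein in a mixture of all embryonic tissues and ages, and with 1 group of 2 replicates no test over samples could be made. Read counts were not part of the peak lists, and the sequencing depth is unknown. Shares are given with 95% exact Clopper-Pearson intervals, which cover counting error over summits or genes alone.

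A core promoter is the stretch of DNA around a TSS on which RNA polymerase II and the general transcription factors assemble. In Drosophila many housekeeping genes start in pairs, head to head on opposite strands with their promoters close together, and use elements such as the DRE, the site of the factor Dref. Developmental genes more often stand alone, start at several alternative promoters, and use elements such as the TATA box, the Initiator and GAGA sites, which bind the GAGA factor encoded by Trl. A summit near the promoter of a single coding gene can be attributed to that gene by position more readily than a summit between paired genes, although nearness does not show which gene a protein acts on.

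The bases under the summits are shown first for 18 single-gene summits, because the later comparisons of base composition and motif words rest on such windows. Each window reaches 50 bp to either side of the summit in the RefSeq dm6 sequence and is written 5′ to 3′ on the strand of the gene. Each lay upstream of every TSS of its gene within 500 bp and overlapped no annotated exon, which 479 single-gene summits did. Capitals mark matches on either strand to the 5 words with the highest ratio to the flanking sequence among those held by at least 5% of single-gene summits. These words were the CA repeat CACACACA, the DRE core ATCGAT, the TATA box TATAAA, the A run AAAAAAAA and the Zeste site TGAGTG, and overlapping matches run together. The first 8 windows belong to the strongest summits that met these conditions, and the next 10 are, in pairs, the strongest further ones that hold the CA repeat, the DRE core, the TATA box, the A run and the Zeste site.
ph-p (chrX:2137279-2137379, minus strand): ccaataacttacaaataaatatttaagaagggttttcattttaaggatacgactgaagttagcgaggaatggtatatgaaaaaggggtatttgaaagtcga
CG14100 (chr3L:19590561-19590661, minus strand): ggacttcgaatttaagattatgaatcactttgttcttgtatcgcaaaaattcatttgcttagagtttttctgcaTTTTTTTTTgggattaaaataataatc
CG18549 (chr3R:12449119-12449219, plus strand): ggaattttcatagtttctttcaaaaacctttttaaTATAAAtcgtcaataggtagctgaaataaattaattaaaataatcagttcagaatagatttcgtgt
gish (chr3R:16280671-16280771, plus strand): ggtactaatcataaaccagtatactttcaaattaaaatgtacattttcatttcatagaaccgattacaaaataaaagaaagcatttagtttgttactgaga
CG31145 (chr3R:23669802-23669902, minus strand): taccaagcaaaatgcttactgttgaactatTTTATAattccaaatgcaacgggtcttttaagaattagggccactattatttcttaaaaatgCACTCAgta
ph-d (chrX:2123481-2123581, minus strand): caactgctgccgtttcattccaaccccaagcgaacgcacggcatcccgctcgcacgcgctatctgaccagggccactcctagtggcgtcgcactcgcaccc
CG1635 (chr3R:31588481-31588581, plus strand): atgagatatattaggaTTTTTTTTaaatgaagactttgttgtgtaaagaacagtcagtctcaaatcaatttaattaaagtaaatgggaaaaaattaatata
RluA-1 (chr2L:10474476-10474576, minus strand): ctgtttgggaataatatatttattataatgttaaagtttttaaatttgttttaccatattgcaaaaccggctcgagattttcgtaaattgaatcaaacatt
grn (chr3R:8181546-8181646, minus strand): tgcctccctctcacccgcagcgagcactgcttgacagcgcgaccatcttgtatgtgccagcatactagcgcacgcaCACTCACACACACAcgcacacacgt
disco-r (chrX:16149120-16149220, minus strand): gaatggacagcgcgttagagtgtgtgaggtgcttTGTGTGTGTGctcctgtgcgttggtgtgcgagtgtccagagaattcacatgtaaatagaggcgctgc
Regnase-1 (chr3R:20036095-20036195, minus strand): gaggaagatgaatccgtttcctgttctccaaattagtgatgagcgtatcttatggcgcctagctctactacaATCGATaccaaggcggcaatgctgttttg
Argk1 (chr3L:9057868-9057968, minus strand): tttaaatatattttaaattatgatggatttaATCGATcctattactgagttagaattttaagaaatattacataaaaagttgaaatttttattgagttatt
msi (chr3R:25515824-25515924, plus strand): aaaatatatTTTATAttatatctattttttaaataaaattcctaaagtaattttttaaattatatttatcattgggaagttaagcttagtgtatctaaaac
CG11357 (chr3L:4541832-4541932, plus strand): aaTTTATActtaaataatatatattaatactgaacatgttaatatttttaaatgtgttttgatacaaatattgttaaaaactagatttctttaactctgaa
Hmt4-20 (chrX:655106-655206, minus strand): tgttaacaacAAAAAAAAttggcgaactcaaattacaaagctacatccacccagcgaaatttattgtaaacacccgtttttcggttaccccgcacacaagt
Ptpmeg2 (chrX:9646071-9646171, minus strand): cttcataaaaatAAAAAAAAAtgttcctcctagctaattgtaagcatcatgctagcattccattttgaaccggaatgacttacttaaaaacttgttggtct
Abd-B (chr3R:16960366-16960466, minus strand): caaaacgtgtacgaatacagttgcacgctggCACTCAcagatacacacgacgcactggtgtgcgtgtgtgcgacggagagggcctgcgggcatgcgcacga
bbx (chrX:21367779-21367879, plus strand): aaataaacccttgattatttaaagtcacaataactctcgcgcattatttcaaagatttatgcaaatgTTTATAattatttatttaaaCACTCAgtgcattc

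Of the first 8 windows, 4 held none of the 5 words. In base composition 7 of the 8 were between 68.3% and 78.2% A+T, and the window of ph-d was the exception, at 35.6% A+T. The windows chosen for the CA repeat, at grn and disco-r, were 40.6% and 47.5% A+T, and had signals of 131.7 and 117.7. Those chosen for the TATA box, at msi and CG11357, were 85.1% and 84.2% A+T, and had signals of 588.7 and 585.1. The gene grn encodes a GATA factor, and msi the RNA-binding protein Musashi.

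Signal at single-gene summits spanned a wide range. It is the authors' value from both replicates combined, in units of their caller, and serves to rank peaks inside 1 list. It ran from 2.83 to 1302.2, with a median of 105.8 and quartiles of 79.7 and 165.5. At summits shared by 2 or more coding genes the median was 122.7, a log2 ratio of -0.21 for single-gene over shared summits. In the list called from replicate 1 alone this log2 ratio was also -0.21, and in that of replicate 2 it was -0.042. The lower median of single-gene summits was thus seen in the list of replicate 1 and was near 0 on the log2 scale in that of replicate 2.

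The strongest single-gene summit lay at vig, which encodes an RNA-binding protein found with the RNA interference machinery. Its signal was 1302.2 (2L, 15067913 to 15068304), and the strongest overlapping candidates of replicates 1 and 2 had signals of 568.0 and 726.0. The summit lay in an intron of the annotation, 42 bp upstream of the nearest vig TSS and 2196 bp downstream of the gene's 5′-most TSS. Both copies of polyhomeotic, which encode a subunit of a Polycomb repressive complex, were among the 25 strongest. The summit of ph-p had a signal of 1250.3 (X, 2136809 to 2137756), with 745.0 and 451.0 in replicates 1 and 2, and lay 474 bp upstream of an internal TSS. The summit of ph-d had 687.7 (X, 2123238 to 2123942), with 303.8 and 368.5, and lay 245 bp upstream of the gene's 5′-most TSS. The copies are near-identical over parts of their length, and whether reads were shared between them was not tested.

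Ugalt, which encodes a transporter of UDP-galactose, reached a signal of 1188.2 (X, 2703733 to 2704048), with 735.4 and 462.9 in replicates 1 and 2. Cirl, which encodes a latrophilin receptor, had 1136.8 (2R, 8614483 to 8614934), with 489.9 and 668.0. For mRpL41, a mitochondrial ribosomal protein gene, the signal was 1104.1 (2R, 15217606 to 15217903), with 714.8 and 394.6. In all 3 the summit lay between genes and another coding gene started upstream on the opposite strand, 673, 524 and 618 bp from the summit, just beyond the limit of the rule.

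PNPase, which encodes the polynucleotide phosphorylase of mitochondria, had a signal of 1012.6 (3R, 31404519 to 31404813), with 566.9 and 449.5, and its summit, 76 bp downstream of a TSS, was the only one of the 25 strongest not upstream. The gish gene, for a casein kinase, had 780.8 (3R, 16280559 to 16280885), with 516.6 and 278.5, at its internal TSS cluster 3 of 4. Nsf2, for an ATPase of vesicle fusion, had 776.1 (3R, 13837854 to 13838153), with 358.6 and 420.2. Both replicates were high at each of these genes, and the replicate with the higher value differed between them.

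The neuronal RNA-binding protein gene elav had a signal of 620.8 (X, 523338 to 523650), with 346.2 and 276.8. The translation factor gene eIF6 had 612.0 (2R, 23850263 to 23850536), with 369.3 and 237.4. The transcription factor gene Sox14 had 601.4 (2R, 23978418 to 23978694), with 397.5 and 206.1. The rest of the 25 strongest were CG14100 (signal 1091.1), Fkbp14 (892.8), CG18549 (845.2), px (789.3), Tina-1 (741.5), CG31145 (721.8), CG1635 (686.0), RluA-1 (667.8), CG1888 (625.4), cu (621.9), brwl (608.2), TRAM (606.3) and PAN3 (594.9). Of these 25 summits, 25 were in the thresholded lists of both replicates, 24 lay upstream of the nearest TSS, 21 had the higher signal in replicate 1 and 17 lay at the 5′-most TSS cluster of their gene.

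The CG32767 gene itself had no summit within 500 bp of its TSSs. The nearest summit lay 994 bp from its TSS (X, 5083622 to 5083893) and had a signal of 601.5. At the limit of the rule, CycE and SREBP had summits 500 bp from a TSS and were counted, with signals of 150.7 and 106.2. Mhcl had a summit at 502 bp and was not counted, with a signal of 141.7.

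Single-gene summits lay mostly just upstream of the TSS and were spread more widely than shared ones. Of the 1154, 817 (70.8%, 68.1 to 73.4) lay upstream of the nearest TSS of their gene, and the median position was -112 bp, with quartiles of -226.75 and 36.5 bp. Of the 524 shared summits, 385 (73.5%, 69.5 to 77.2) lay upstream, with a median of -78.5 bp and quartiles of -124 and 7.25 bp. Within 100 bp of the TSS lay 28.6% (26.0 to 31.3) of single-gene summits and 52.9% (48.5 to 57.2) of shared ones. Over 300 bp upstream lay 173 single-gene summits (15.0%, 13.0 to 17.2) and 4 shared ones (0.763%, 0.208 to 1.94). A summit between paired genes must be near both TSSs to count as shared, so part of this difference in spread follows from the rule.

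**Figure D1:**
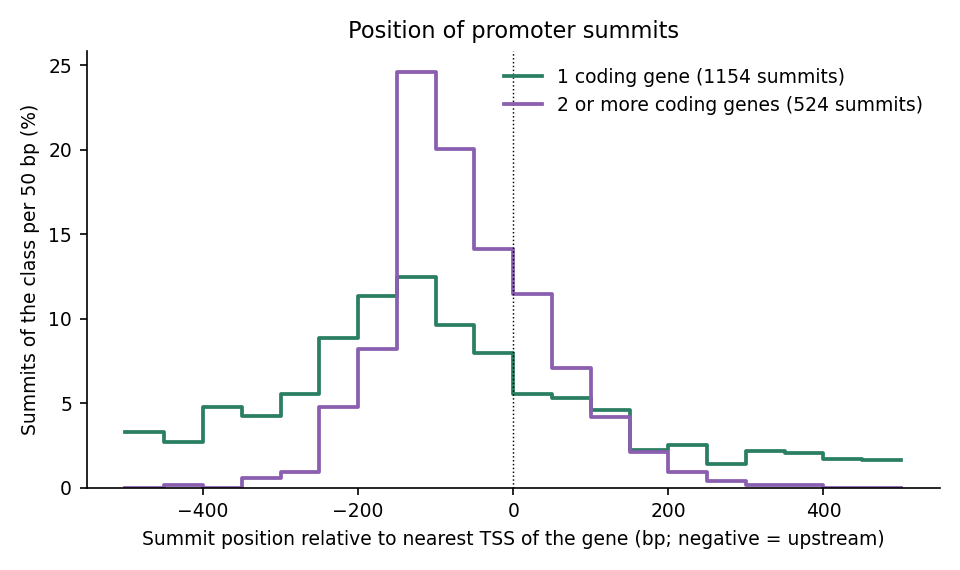
Position of summits relative to the nearest TSS of the gene, in bins of 50 bp, for single-gene summits (green, 1154) and summits at 2 or more coding genes (purple, 524); the y axis gives the percent of summits of the class. Single-gene summits reach over 300 bp upstream in 15.0% of cases, and shared summits in 0.763%.

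The annotation under the summits differed in kind. Single-gene summits lay in intergenic sequence in 423 cases (36.7%, 33.9 to 39.5), in introns in 403 (34.9%, 32.2 to 37.8) and in 5′ untranslated exons in 255 (22.1%, 19.7 to 24.6). Coding exons held 30, exons of non-coding RNAs 24 and 3′ untranslated exons 19. Shared summits lay in introns in 12.4% (9.71 to 15.5) and in intergenic sequence in 56.9% (52.5 to 61.2). An intron that holds a promoter summit can belong to a longer transcript of the same gene, which starts farther upstream, or to another gene.

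Single-gene summits often lay at alternative promoters. TSSs of a gene were joined into clusters where neighbours were at most 500 bp apart. Of the 1154 summits, 808 (70.0%, 67.3 to 72.7) lay at the 5′-most cluster of the gene and 346 (30.0%, 27.3 to 32.7) at an internal one. Among the 570 summits of genes with several clusters, 346 (60.7%, 56.6 to 64.7) were internal. Internal clusters are also more numerous. Among clusters of such genes without a coding neighbour, 2792 were internal and 1229 were 5′-most. A summit was present at 11.1% of these internal clusters and at 15.0% of these 5′-most ones, so the 60.7% does not show an excess at internal promoters. The internal share was 32.3% (28.4 to 36.3) for summits in the lists of both replicates, 27.2% (21.1 to 34.0) for those in the list of replicate 1 only and 30.3% (23.9 to 37.2) for those in the list of replicate 2 only.

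Some internal promoters were far inside long genes. The distances were sorted and the longest taken after the values were seen. In dnc, the cAMP phosphodiesterase gene dunce, the summit lay 118593 bp downstream of the 5′-most TSS (X, 3294904 to 3295121), at cluster 5 of 8, with a signal of 297.2 and replicate values of 154.2 and 144.6. In Svil, which encodes a supervillin-like actin regulator, it lay 116731 bp downstream (3L, 2494191 to 2494580), at cluster 16 of 16, with 160.2 and replicate values of 94.7 and 68.8. In Ten-a, for a teneurin of synapses, it lay 160073 bp downstream (X, 12203576 to 12203965), with 82.6 and replicate values of 41.7 and 39.1, and was in neither replicate's thresholded list. The first 2 of these summits were in the lists of both replicates.

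Most genes had 1 such summit and a few had several. Of the 1001 genes, 863 had 1 summit, 126 had 2, 9 had 3 and 3 had 4. Rtnl1, which encodes a reticulon that shapes the endoplasmic reticulum, had 4 summits, with signals of 518.8, 263.7, 164.8 and 87.2. They lay 202 to 336 bp upstream of TSSs in its clusters 3 to 6 of 7. Ptpmeg2, a tyrosine phosphatase gene, had 3, with signals of 348.1, 291.3 and 281.6, at its clusters 4, 5 and 2 of 6. These summits lay at separate alternative promoters.

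In Drat and l(3)neo38 the several summits were closer together. The 4 summits of Drat had signals of 226.5, 167.4, 113.2 and 49.2 and lay at 2 TSS clusters, and neighbouring peaks overlapped the same replicate candidates. Those of l(3)neo38, a zinc finger gene, had 118.9, 80.9, 51.0 and 32.3, and CG14968 had 3 of 356.5, 190.3 and 95.9, at its clusters 1, 3 and 3 of 3. Over all single-gene summits, 313 (27.1%, 24.6 to 29.8) had another summit within 1000 bp. Weak summits were nearly always among these, since 76 of the 82 whose signal was below 40 had a stronger one that close.

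Genes with several TSSs held more of the summits. Of the 13945 coding genes on the arms, 7.18% had a single-gene summit and 14.1% had any promoter summit. Among the 1001 genes with a single-gene summit, 580 (57.9%, 54.8 to 61.0) had several distinct TSSs and the median gene span was 6630 bp. Among the 1001 genes with a shared summit, 367 (36.7%, 33.7 to 39.7) had several, with a median span of 2455 bp. Among all coding genes the values were 26.5% (25.8 to 27.3) and 2166 bp. A gene with more TSSs offers more sequence within 500 bp of a TSS, so a count per gene is not a count per promoter.

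The distance to a neighbouring gene was then used to separate genes that stand alone. Of 7960 genes with no TSS of another coding gene within 1000 bp of theirs, 699 (8.78%, 8.17 to 9.42) had a promoter summit. This share was 5.38% (4.83 to 5.98) for those with 1 distinct TSS, 14.6% (12.7 to 16.7) with 2, 29.8% (25.9 to 33.9) with 3 to 5 and 49.1% (35.4 to 62.9) with 6 or more. Of 5985 genes with such a neighbour, 1266 (21.2%, 20.1 to 22.2) had any promoter summit, 17.3% (16.1 to 18.4) with 1 distinct TSS and 48.6% (31.9 to 65.6) with 6 or more. Of the 714 genes with a neighbour, 1 distinct TSS and any promoter summit, 634 had a shared summit, which counts for each gene it is near. By single-gene summits alone the order was the opposite, at 2.22% of genes with 1 distinct TSS and a neighbour against 5.38% of those without.

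Counted per TSS cluster without a coding neighbour, a summit was present at 6.01% (5.46 to 6.60) of the only clusters of a gene. It was present at 15.0% (13.0 to 17.1) of the 5′-most clusters of genes with several, and at 11.1% (9.995 to 12.4) of the internal ones. The share was thus higher at genes with several promoters also when each cluster was counted by itself.

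Coding neighbours also lay just beyond the limit. The nearest TSS of another coding gene was 500 to 1000 bp away for 204 single-gene summits (17.7%, 15.5 to 20.0), and in 176 of these it was upstream on the opposite strand. It was 1000 to 2000 bp away for 219 and over 2000 bp away for 731 (63.3%, 60.5 to 66.1). Among all single-gene summits, 74 (6.41%) also had a non-coding TSS within 500 bp.

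The lists of the replicates overlapped equal numbers of the single-gene peaks. What was compared by irreproducible discovery rate within a replicate to make its list is a step the sources do not state. The thresholded list of replicate 1 overlapped 762 of the peaks (66.0%, 63.2 to 68.8), and that of replicate 2 also 762. Both lists overlapped 567 (49.1%, 46.2 to 52.1), against 45.8% of summits of all classes, neither list overlapped 197 (17.1%, 14.9 to 19.4), and 195 were in each list only. At shared summits the lists differed, with 77.5% (73.7 to 81.0) in replicate 1 and 58.8% (54.4 to 63.0) in replicate 2. The signal was higher in replicate 1 at 56.3% of single-gene summits and at 75.3% of shared ones, and the median log2 ratio of replicate 1 to replicate 2 was 0.11 and 0.46. Signal units need not be the same in the lists of the replicates, so only the difference between classes can be read from these ratios.

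Across the 1137 single-gene summits with a candidate in each replicate, the replicates' log2 signals were correlated, with Pearson's r at 0.71 and Spearman's rho at 0.57. These points share their library and are described without a test. No candidate overlapped 10 of the peaks in replicate 1 and 7 in replicate 2.

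**Figure D2:**
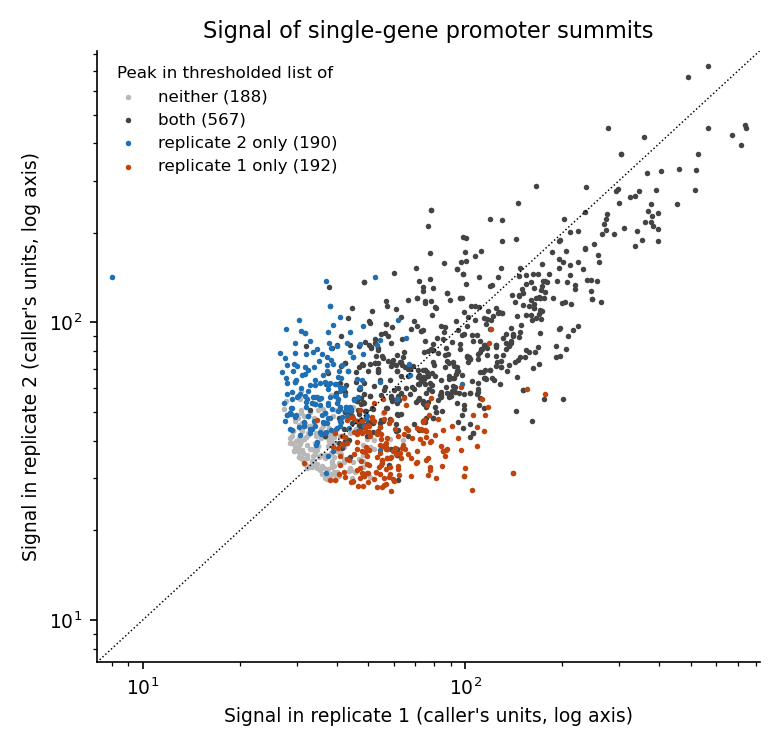
Signal of single-gene summits in replicate 1 (x axis) and replicate 2 (y axis), both in the caller's units on log axes, coloured by the thresholded lists that hold the peak; the dotted line marks equal values and the 1137 summits with a candidate in each replicate are drawn. The 567 peaks in both lists extend to the high values, and the peaks of a single list or of neither sit at low values.

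The summits held by a single replicate's list differed in position and in sequence. Of the 195 in the list of replicate 1 only, 81.5% (75.4 to 86.7) lay upstream of the TSS, and of the 195 in that of replicate 2 only, 57.4% (50.2 to 64.5). Their median positions were -143 and -40 bp. In 5′ untranslated exons lay 13.3% (8.90 to 18.9) and 30.3% (23.9 to 37.2), and in intergenic sequence 43.1% (36.0 to 50.3) and 27.2% (21.1 to 34.0). The A+T content within 50 bp of the summit was 65.1% ± 10.6 (SD over 195 windows) and 54.8% ± 10.1 (SD over 195 windows). Summits in both lists stood near those of replicate 1 only, at 64.2% ± 11.7 A+T (SD over 567 windows) and 74.4% (70.6 to 78.0) upstream. The 197 summits in neither list stood nearer those of replicate 2 only, at 57.3% ± 10.7 A+T (SD over 197 windows). Of them 62.9% (55.8 to 69.7) lay upstream and 26.4% (20.4 to 33.1) in 5′ untranslated exons, with a median position of -64 bp. These traits were thus not particular to the list of replicate 2. These SDs describe windows, which are not replicates.

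The same contrast appeared when single-gene summits were taken afresh from each replicate's own list. That of replicate 1 gave 888 summits, of which 77.3% lay upstream, with a median position of -141 bp and a mean A+T content of 64.8%. That of replicate 2 gave 989, of which 65.6% lay upstream, with -93 bp and 59.6%. Shared summits moved the same way, from 69.3% A+T in replicate 1 to 65.9% in replicate 2. With 1 library per replicate, differences between libraries and between embryo collections cannot be told apart.

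Base composition and position also followed signal, and did so more in replicate 1. From the strongest to the weakest quartile of the combined signal, the mean A+T content at the summit was 66.9%, 63.0%, 59.4% and 57.0%. The share upstream was 83.0% (78.2 to 87.2), 73.3%, 67.8% and 59.0% (53.1 to 64.8), and the median position -163, -122, -77 and -58 bp. Ranked by the signal of replicate 1, the A+T content went from 68.0% in the top quartile to 55.6% in the bottom one, and the upstream share from 86.0% to 59.1%. Ranked by that of replicate 2, it went from 63.5% to 60.7%, and the upstream share from 74.6% to 68.9%. The direction from the top to the bottom quartile was the same in both replicates, and the difference in replicate 2 was smaller.

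Composition followed signal on either side of the TSS. Among the 817 upstream summits the A+T content went from 68.2% in the strongest quartile of combined signal to 58.9% in the weakest, and among the 337 others from 60.4% to 54.3%. The sequence centred 500 bp to the upstream side was 61.4% A+T and that to the downstream side 55.1%. At shared summits the summit was 67.1% A+T and the corresponding flanks 52.1% and 49.6%, where the sequence on either side usually belongs to a gene. In the profile by quartile, the strongest quartile peaked at 68.3% A+T in the bin at -13 bp and was lowest, 51.7%, at 137 bp downstream. The weakest quartile had no peak at the summit, and its highest bin, 63.4%, lay at -388 bp.

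**Figure D3:**
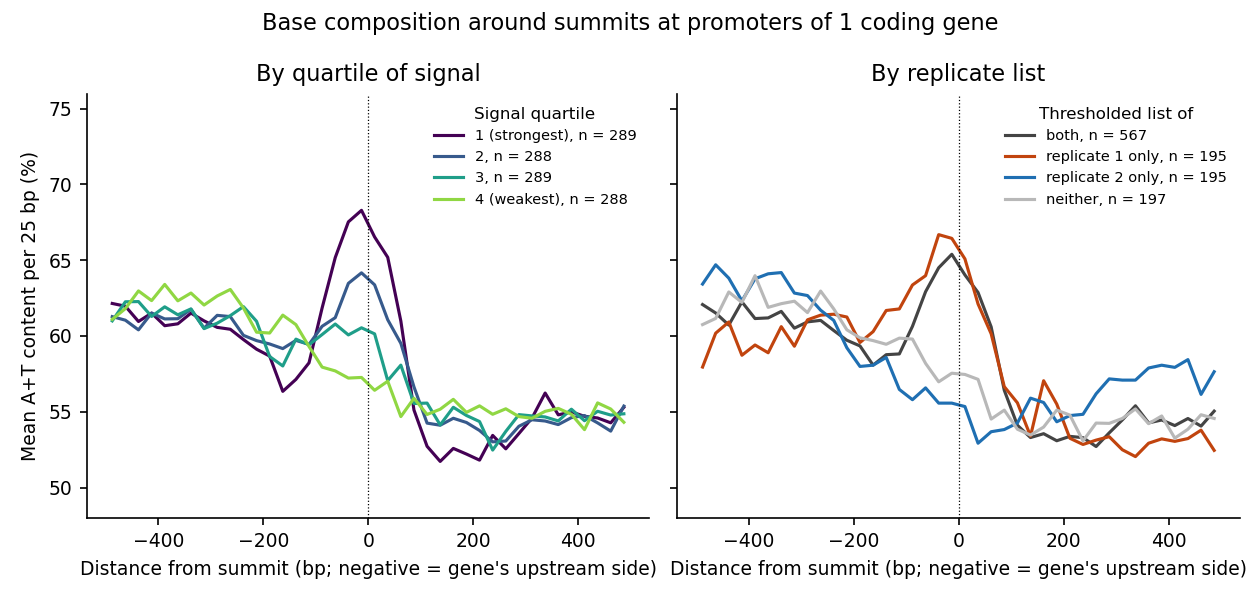
Mean A+T content in bins of 25 bp around single-gene summits, with the gene's upstream side to the left, by quartile of combined signal (left) and by the thresholded replicate list that holds the peak (right). The strongest quartile rises to 68.3% near the summit, and summits in the list of replicate 2 only have no rise there and their highest bin, 64.7%, at -463 bp. Summits in neither list have their highest bin, 64.0%, at -388 bp.

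Of the 23 motif words searched, 20 had a higher share at single-gene summits than in their own flanks. For 3 of them, the DRE, the GAGA element and the TATA box, the intervals at summits and in both flanks together were separate. Words were searched on both strands within 50 bp of each of 1154 summits and in the 2308 windows of the same length centred 500 bp to either side. The TATA box was at 15.9% of upstream flanks, near the 16.5% at summits, and at 7.63% of downstream ones. The DRE was at 1.21% of upstream flanks, inside its interval at summits (1.20 to 2.87), and at 0.173% of downstream ones. For the GAGA element these shares were 2.25% upstream and 1.82% downstream. The GAGA element GAGAGAG, which contains the short form GAGAG searched separately, was held by 45 single-gene summits (3.90%, 2.86 to 5.18) and by 2.04% (1.5 to 2.7) of flanks. Single-gene summits taken from the list of replicate 1 held it at 1.91% (1.12 to 3.05), below that share of flanks, and those from the list of replicate 2 at 5.56% (4.22 to 7.18). None of the 524 shared summits held it (interval up to 0.702%), although shared summits taken from each replicate's own list held it in 0.209% (replicate 1) and 0.813% (replicate 2) of cases, and 3.32% of windows of the same length at all coding promoters did. The CA repeat was held by 67 single-gene summits (5.81%, 4.53 to 7.31), by 3.90% (3.15 to 4.77) of flanks, by 1.91% (0.919 to 3.48) of shared summits and by 1.48% (1.28 to 1.69) of all promoters. In single-gene summits taken from each replicate's own list the CA repeat was at 3.49% in replicate 1, below the share of flanks just given, and at 6.98% in replicate 2. A match is a run of letters and not a shown binding site.

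The DRE, the TATA box and the homeodomain word were more frequent at shared summits than at single-gene ones. The DRE, TATCGATA, which contains the DRE core, was at 1.91% (1.20 to 2.87) of single-gene summits, 4.96% (3.27 to 7.19) of shared ones, 0.693% of flanks and 1.79% of all promoters. The DRE core was at 5.37% (4.14 to 6.83), 10.3% (7.84 to 13.2), 3.73% and 6.41% in the same order. The TATA box was at 16.5% (14.4 to 18.7) of single-gene summits, 25.2% (21.5 to 29.1) of shared ones, 11.8% (10.5 to 13.2) of flanks and 18.9% of all promoters. The homeodomain word TAATTA was at 6.76% (5.38 to 8.36), 13.9% (11.1 to 17.2), 7.02% and 9.81%. Shared summits were richer in A+T, and the part of base composition in the frequency of TATAAA and TAATTA was not tested.

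The A run and the Zeste site were 4th and 5th in ratio to the flanks among the words held by at least 5% of single-gene summits. Their shares were near those of the flanks, at 6.41% against 6.11% and 5.55% against 5.29%. The short GAGA form was at 13.5% of single-gene summits and 13.2% of flanks. The Initiator TCAGTT was at 6.15% (4.84 to 7.70) of single-gene summits and 6.93% of flanks, and Motif 1, GGTCACACT, at 0.607% and 0.433%. The Initiator lies at the TSS, and 28.6% of single-gene summits were within 100 bp of it.

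Several words differed between the strong and the weak summits and between the lists of the replicates. The TATA box word was at 27.0% (22.0 to 32.5) of the strongest quartile and 9.72% (6.56 to 13.7) of the weakest. Single-gene summits that held it had a median position of -167.5 bp, and matches on either strand counted. Whether the word lay where a core promoter would use it was not tested. The short GAGA form was at 7.96% (5.11 to 11.7) of the strongest quartile and 20.1% (15.7 to 25.2) of the weakest. The GAGA element was at 2.05% (0.562 to 5.17) of summits in the list of replicate 1 only and 9.23% (5.56 to 14.2) of those in that of replicate 2 only. In single-gene summits taken from each replicate's own list it was at 1.91% in replicate 1 and 5.56% in replicate 2. The CA repeat was at 5.13% (2.49 to 9.23) and 11.3% (7.21 to 16.6) of the summits of a single list, and at 3.35% (2.03 to 5.18) of those in both. Summits in neither list held the GAGA element at 5.58% (2.82 to 9.77) and the CA repeat at 8.12% (4.71 to 12.9). Both shares were thus highest among summits that the list of replicate 2 alone held, with intervals that overlapped those of summits in neither list. The TATA box was at 20.8% (17.5 to 24.4) of summits in both lists. This interval overlapped that of summits in the list of replicate 1 only, at 17.9% (12.8 to 24.1).

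**Figure D4:**
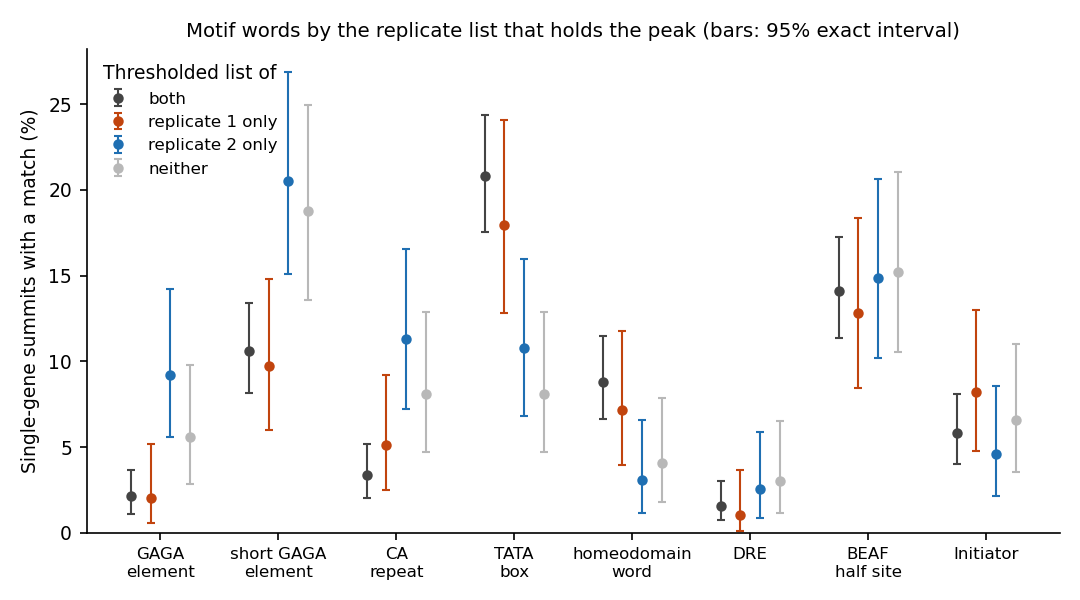
Percent of single-gene summits with a match within 50 bp of the summit for 8 motif words, by the thresholded list that holds the peak (567 in both, 195 in each single list, 197 in neither); points are shares and bars 95% exact intervals. The GAGA element and the CA repeat are highest in the list of replicate 2 only, at 9.23% and 11.3%, followed by neither list, at 5.58% and 8.12%. The TATA box is highest in both lists, at 20.8%, followed by the list of replicate 1 only, at 17.9%. The bars of each of these pairs overlap.

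Words of 7 letters were also ranked without a motif list. The ranking used every other summit in order of signal, and the 10 leading words were then counted on the remaining 577. ATACAGA was at 26 of these (4.51%, 2.96 to 6.53), at 1.82% (1.13 to 2.77) of their flanks, at 1.53% of shared summits and at 1.21% of all promoters. TAATAAA was at 7.97% (5.90 to 10.5), against 4.59% (3.46 to 5.96) of flanks, but at 11.8% of shared summits and 8.95% of all promoters. Of the other words, ATAATAA was at 5.89% of summits and 5.72% of flanks, and CATATTA at 2.77% and 2.69%.

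Genes of 3 groups of signalling pathways had single-gene summits at ligand processing, receptor, cytoplasmic and nuclear steps. The lists are not matched to other genes in their number of TSSs, and the part of that number in the shares below was not tested. Of 15 genes of the Notch pathway, 8 (53.3%, 26.6 to 78.7) had one, against 7.18% of all coding genes. In single-gene summits of the list of replicate 1 the share was 33.3% (11.8 to 61.6), and in that of replicate 2 it was 26.7% (7.79 to 55.1). The strongest was at gro, which encodes the corepressor Groucho, with a signal of 391.0 (3R, 26042390 to 26042616) and replicate values of 245.7 and 139.3. At numb, an inhibitor of Notch, it was 299.9 (2L, 9449527 to 9449712), with 187.1 and 120.5. At kuz, the protease that cleaves Notch, it was 137.9 (2L, 13549999 to 13550388), with 53.5 and 80.9, and at neur, a ubiquitin ligase for the ligand Delta, 124.3 (3R, 9033796 to 9034185), with 87.5 and 37.5. The summits of gro, numb and neur lay at an internal TSS cluster, and 3 of the 8 genes were in the lists of both replicates.

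Of 26 genes of the EGFR and Ras pathway, 8 (30.8%, 14.3 to 51.8) had a single-gene summit, 23.1% in the list of replicate 1 and 26.9% in that of replicate 2. The scaffold gene ksr, kinase suppressor of Ras, had a signal of 391.4 (3R, 5483734 to 5484013), with 145.8 and 253.1 in the replicates. The gene for the secreted inhibitor Argos, aos, had 243.2 (3L, 16483695 to 16484084), with 147.7 and 92.8. The list also holds genes of fibroblast growth factor (FGF) signalling, which acts through Ras too. Among them the adaptor gene stumps, which acts at FGF receptors, had 133.5, with 94.9 and 46.4. The gene pnt, for an ETS factor at the end of the pathway, had 128.1, with 65.4 and 60.3. These 4 genes were in the lists of both replicates, and the genes span inhibitor, scaffold, adaptor and nuclear factor.

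Of 25 genes of Wingless and Hedgehog signalling, 6 (24.0%, 9.36 to 45.1) had a single-gene summit, 16% (4.54 to 36.1) in the list of replicate 1 and 24% (9.36 to 45.1) in that of replicate 2. The interval in the list of replicate 1 included 7.18%. The kinase gene sgg had a signal of 364.8 (X, 2646336 to 2646571), with 219.3 and 133.6, at its TSS cluster 6 of 8. The beta-catenin gene arm had 280.3 (X, 1899799 to 1899973), with 107.3 and 167.5. The inhibitor gene nkd had 201.6 (3L, 19045574 to 19045691), with 125.0 and 73.5, and ptc, the Hedgehog receptor, had 134.9 (2R, 8649435 to 8649824), with 46.9 and 83.6. These 4 genes were in the lists of both replicates.

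Genes of chromatin regulation were also among those with single-gene summits. Of 28 Polycomb and Trithorax group genes 7 (25%, 10.7 to 44.9) had one, and the strongest were ph-p, ph-d, fs(1)h (signal 155.4) and Psc (120.6). Of 18 genes for insulator and architectural proteins 5 (27.8%, 9.69 to 53.5) had one, the strongest at Clamp (246.7), Trl (152.5), BEAF-32 (134.0) and pita (103.8). Clamp and Trl encode proteins that bind GA-rich sequence. In the list of replicate 1 the shares were 14.3% and 22.2%, and in that of replicate 2 they were 21.4% and 11.1%. The lower bounds for these lists were 4.03%, 6.41%, 8.30% and 1.38% in that order, so that 3 of the 4 lay below 7.18% of all coding genes.

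Tissue and patterning genes were represented in small numbers. Of 27 mesoderm and muscle genes 6 (22.2%, 8.62 to 42.3) had a single-gene summit, against 7.18% of all coding genes, with tin, a heart and mesoderm homeobox gene, at 356.6 (3R, 21378647 to 21378868; replicates 194.7 and 163.0), Msp300 at 261.2 and sls, the titin-like gene, at 238.7. Of 35 neurogenesis and synapse genes 7 (20%, 8.44 to 36.9) had one, with elav followed by the guidance receptor genes robo1 (192.1) and robo2 (132.3). Of 23 maternal, gap and pair-rule genes 5 (21.7%, 7.46 to 43.7) had one, led by bcd (137.2), and of 8 Hox genes Abd-B alone (344.6; replicates 119.5 and 222.2). These lists hold few genes, and the interval for the Hox genes ran from 0.316% to 52.7%. The lower bound fell below 7.18% in the list of replicate 1 for the mesoderm and muscle genes (6.30%), and in the lists of replicates 1 and 2 for the neurogenesis and synapse genes (3.20% and 6.56%) and the maternal, gap and pair-rule genes (2.78% in each).

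Ribosomal protein genes had weak summits close to the TSS. Of 86 genes of the cytoplasmic ribosome, 21 (24.4%, 15.8 to 34.9) had a single-gene summit, against 7.18% of all coding genes. A summit shared with another coding gene was found at 24 of the 86, against 1001 of all 13945 coding genes. The share with a single-gene summit was 16.3% (9.20 to 25.8) in the list of replicate 1 and 15.1% (8.30 to 24.5) in that of replicate 2. The median signal of the 21, taking the strongest summit of each gene, was 91.2, against 115.5 for all 1001 genes, and 6 of them were in the lists of both replicates, against 49.8% of the 1001 genes. The summit lay within 100 bp of the TSS in 19 of the 21, against 28.9% of the 1001 genes, and the median distance was 39 bp, against 162 bp.

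RpL27 had a signal of 143.6 (3R, 25684886 to 25685275), with 54.6 and 87.4 in replicates 1 and 2 and a summit 30 bp upstream. RpL11 had 138.0 (2R, 19442154 to 19442543), with 61.3 and 77.9 and a summit 7 bp downstream. RpS4 had 132.0, with 67.6 and 66.6, and RpL23A 114.5, with 53.7 and 68.3. The combined signals of these 4 genes lay between the median of 105.8 and the upper quartile of 165.5 of all single-gene summits.

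For 3 other lists of housekeeping genes the share was below 7.18%, with intervals that included it. Of 73 mitochondrial ribosomal protein genes 2 (2.74%, 0.334 to 9.55) had one, mRpL41 and mRpL4 (145.6), while 17 had a shared summit. Of 80 respiratory chain genes 2 (2.50%, 0.304 to 8.74) had one, UQCR-11 (144.8) and ND-B17 (73.1), and 8 had a shared summit. Of 48 proteasome genes 1 (2.08%, 0.0527 to 11.1) had one, Prosalpha2 (91.1), and 2 had a shared summit. Of all 13945 coding genes 1001 had a shared summit, and 14.1% had any promoter summit. Any promoter summit was found at 19 of the 73 mitochondrial ribosomal protein genes, 10 of the 80 respiratory chain genes and 3 of the 48 proteasome genes. Another 3 lists had no single-gene summit. The counts were 0 of 179 chemosensory receptor genes (interval up to 2.04%), 0 of 95 cuticle protein genes (up to 3.81%) and 0 of 27 digestive protease genes (up to 12.8%). The interval of the protease genes included 7.18%, and in the longer peak list of the series the share of cuticle protein genes was 1.05%.

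**Figure D5:**
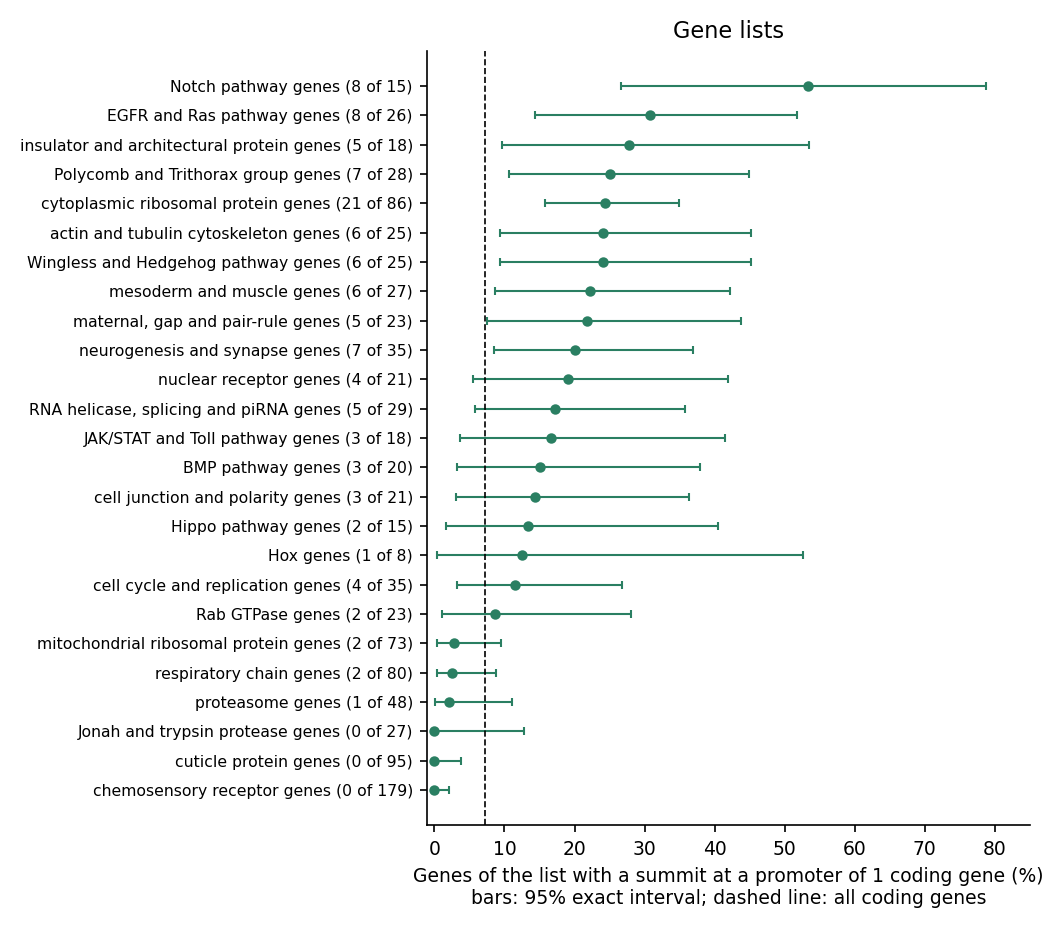
Percent of the genes of each of 25 lists that had a single-gene summit, with 95% exact intervals, and the count and size of each list beside its name; the dashed line marks 7.18% of all coding genes. The Notch pathway is highest, at 8 of 15, and 3 lists of receptor, cuticle and protease genes have none.

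For the remaining lists, 4 of 21 nuclear receptor genes had a single-gene summit, led by Eip75B (290.5), an ecdysone response gene, at its TSS cluster 5 of 7. There were 6 of 25 actin and tubulin cytoskeleton genes, led by sqh (216.8), for the myosin light chain, and 5 of 29 RNA helicase, splicing and piRNA genes, led by B52 (292.7), for an SR splicing factor. There were 4 of 35 cell cycle and replication genes, led by Dp (182.7), 3 of 21 cell junction and polarity genes, led by dlg1 (179.3), and 3 of 20 BMP pathway genes, led by Smox (168.6). Finally there were 3 of 18 JAK/STAT and Toll genes, led by cact (197.8), 2 of 15 Hippo genes, led by Mer (223.5), and 2 of 23 Rab genes, led by Rab5 (203.5). For the combined peaks of both replicates the intervals of these lists included 7.18%, except that of the actin and tubulin genes. The interval of the actin and tubulin genes included it in the list of either replicate (16%, 4.54 to 36.1 in each). The nuclear receptor genes were at 19.0% (5.45 to 41.9) in the list of replicate 1. In that of replicate 2 they were at 38.1% (18.1 to 61.6), an interval above 7.18%.

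Single-gene summits were found on every arm examined. There were 205 on 2L, 246 on 2R, 243 on 3L, 259 on 3R, 192 on the X and 9 on the fourth chromosome. Median signals were 104.7, 103.1, 106.1, 103.0, 115.7 and 143.4 in that order. The X held 16.6% of single-gene summits and 10.5% of shared ones, and 17.4% (12.4 to 23.5) and 14.4% (9.76 to 20.1) of single-gene summits in the list of replicate 1 only and of replicate 2 only. It held 12.7% of summits at non-coding genes only, 19.6% of those 500 to 2000 bp from a TSS and 19.7% of those over 2000 bp away.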

How the data were processed

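The data are from chromatin immunoprecipitation and sequencing of CG32767-eGFP, with 2 biological replicates of 1 group. The authors deposited peak lists on the dm6 assembly, filtered by irreproducible discovery rate (IDR), per the labels and the file listings. The aligner, the peak caller and any use of a control are steps not given in the sources used here. Peak signal is the value deposited by the authors, in the units of their caller. The deposited score is a scaled IDR with a minimum of 830. The summit is the offset from the peak start in the deposited lists, and positions here are 1-based.

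The conservative list of both replicates held 3533 peaks, of which 2 lay off the 6 arms, and was the main list. The lists of replicates 1 and 2 held 2887 and 2624, and the longer list of the series 4636. A replicate's value for a peak is that of the strongest candidate overlapping it by at least 1 bp in that replicate's ranked list, and overlapping peaks can share a candidate. A peak was in a replicate's thresholded list where it overlapped a peak of it by at least 1 bp. Genes and 19607 distinct coding TSSs came from Ensembl release 115 (BDGP 6.54), and sequence from RefSeq dm6. Of 396 symbols in the 25 gene lists, 7 were not matched. All-promoter windows were centred at -112 bp from the 5′ end of each gene.

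Single-gene summits, gene lists and motif words were described by counts and shares, without a test. The text names genes by rule: those of the 25 strongest single-gene summits, the 4 strongest of each list, the 5 genes with the most summits, CG32767, those at the 500 bp limit and those whose windows are printed. A gene just outside that limit is not reported here. The genes dnc, Svil and Ten-a fall outside this naming rule and were picked with their distances known. The summits, lists and this rule were chosen with earlier results of these data known. Python 3.11.15, pandas 2.3.3, numpy 2.4.6, scipy 1.17.1 and matplotlib 3.10.9 were used. The counting steps were checked on simulated data. Depth is unknown, so no precision per peak can be given.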

Additional observations from a re-analysis of the deposited data

How the results depend on the processing

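There were 55 values for 7 summary results. Of these, 24 stayed within the interval of the main value or, where it had none, within a set margin of it. Only the log2 ratio and the median position could change sign, and neither did under any alternative tried. The number of single-gene summits was 584 in the upper 50% of the list by signal and 888 to 989 in the list of a single replicate. The share upstream was 67.8% in the longer list, 77.9% in the upper 50%, 67.1% at a limit of 1000 bp, 63.4% with the 5′ end of each gene as its only TSS, and 65.6% to 77.3% in the list of a single replicate. The median position was -144 bp in the upper 50%, -82.5 bp at 250 bp, -125 bp at 1000 bp, -87 bp with 5′ ends only, and -141 to -93 bp in single replicates. The median signal was 91.3 in the longer list, 164.5 in the upper 50% and 115.5 with the strongest summit of each gene. The log2 ratio of single-gene to shared median signal was -0.081 in the upper 50%, -0.44 at 250 bp, -0.084 at 1000 bp, and -0.21 to -0.042 in single replicates. The share in both replicate lists was 38.6% in the longer list, 81.0% in the upper 50%, 44.7% with an overlap of 50% and 44.2% with summits within 100 bp. The share of genes without a coding neighbour that had a summit was 11.0% in the longer list, 5% in the upper 50%, 6.46% at 250 bp, 10.3% at 1000 bp, 7.40% with 5′ ends only, and 6.81% to 7.10% in single replicates. The cause was not tested.

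Of 200 values for gene lists, 192 stayed within the interval of the main value and 8 fell below it, among them the cytoplasmic ribosomal protein genes at 5.81% in the upper 50% by signal. Of 207 values for motif words, 158 stayed within it, 32 rose and 17 fell, and windows of 100 bp to either side, which hold more sequence, are among the rises. Median signal and the share in both lists have no value in a single replicate, because each list has its own scale and the share needs both. No paired analysis was possible because there is 1 group. Unknown depth limits each statement about summits that are absent from a list.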
